A study of Mus musculus with 65 samples.

Results

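N-cadherin reporter cells of the bone marrow were set against Cxcl12 reporter cells, which are 2 of the 10 populations sorted to describe the neighbourhood of the blood stem cell in mouse femur and tibia. All 4 Ncad_marrow libraries and all 4 Cxcl12_RFP libraries of the niche set entered the comparison, that is, 8 of 42 niche libraries and 8 of 65 libraries in the whole series. Libraries were assigned to the groups by their labels, and the pair of groups was picked with earlier results of these data known. Genes were tested where the FPKM was at least 1 in 3 or more niche libraries, which left 18972 of 44381 listed genes.

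Ncad_marrow cells were sorted from marrow as Tomato-positive cells lacking CD45, Ter119 and CD31. Cxcl12_RFP cells were DsRed-positive for Cxcl12 and lacked the same 3 surface markers, which belong to leukocytes, erythroid cells and endothelium. Lepr cells, negative for those markers and positive for the leptin receptor, served as a further stromal population (6 libraries). All animals were untreated as far as the labels say. The strain, age and sex of the mice, the N-cadherin Tomato allele and its driver, and the insertion site of DsRed are not given in the sources used here. Nothing states that a group's replicates are different mice, and the p-values therefore cover the spread between libraries, which may be technical. In reporter lines where the fluorescent protein is placed into the Cxcl12 gene, the marked cells carry fewer working copies of it (background), so for Cxcl12 itself the reporter allele and the population cannot be told apart here.

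Blood stem cells are held in the marrow by perivascular stromal cells, which overlap widely whether they are marked by Cxcl12, the leptin receptor or Nestin reporters. These cells secrete CXCL12, the chemokine that retains stem cells through the receptor CXCR4, and stem cell factor (Kitl), the ligand of KIT. N-cadherin (Cdh2) is a calcium-dependent adhesion protein that links neighbouring cells through catenins and has long been used to mark stromal and bone-lining cells of the niche. Interferons, TGF-beta and BMP signals and inflammatory cytokines act on both the stroma and the stem cell.

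Both populations carried the genes of marrow stroma at high levels. Summed over 34 genes of Lepr+ and adipogenic stroma, FPKM ran between 37710 and 49257 in Ncad_marrow libraries, against 32076 to 34800 in Cxcl12_RFP libraries and 30598 to 51543 in Lepr libraries. Adipoq, the adipokine gene that this stroma transcribes strongly, had 5918, 6664, 7168 and 7038 FPKM in Ncad_marrow and 5522, 5580.2, 5372 and 5061 FPKM in Cxcl12_RFP. The groups did not overlap, but the log2 fold change of 0.31 did not pass the test (adjusted p = 0.701, limma, 95% interval -0.38 to 1.01). Lepr itself had 768, 836, 975 and 1476 FPKM in Ncad_marrow and 812, 901, 888 and 854 FPKM in Cxcl12_RFP, which overlap, with a log2 fold change of 0.18 (95% interval -0.53 to 0.90). Transcripts of this stroma were thus present in all 8 libraries. The same 34 genes also summed to 17772 to 19775 FPKM in the Pecam_GFP endothelial sort.

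Absolute depth is unknown from FPKM, but from the spacing of low values the deepest of the 8 libraries had 1.94 times the depth of the shallowest. Each library had 12728 to 13377 genes at an FPKM of at least 1. The 10 highest genes held 40.2% to 67.0% of all FPKM, and 19 to 38 of 3969 widely expressed genes were listed at 0, so a single 0 may be a failed estimate. Correlations of log2 values across genes were 0.917 to 0.937 within a group and 0.896 to 0.925 between the groups. The libraries also differed in residual blood RNA and in sex-linked transcripts. Summed FPKM of 17 neutrophil genes was 609, 8518, 392 and 1136 in Ncad_marrow replicates 1 to 4, against 15245, 18512, 17416 and 18219 in Cxcl12_RFP replicates 1 to 4. Replicate 2 of Ncad_marrow thus stood apart from its group. Xist, the RNA that silences an X chromosome in females, had 16.8, 16.5, 18 and 12 FPKM in Ncad_marrow and 0.043, 0.059, 0.02 and 0.746 FPKM in Cxcl12_RFP. The Y-linked gene Eif2s3y had 0 to 0.017 FPKM in Ncad_marrow and 0.71 to 3.55 FPKM in Cxcl12_RFP, where Lepr libraries had 29.3 to 44.3 FPKM. Cxcl12_RFP libraries were therefore low in both, Ncad_marrow libraries were high in Xist alone, and sex and population cannot be told apart for any gene below.

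Of the 18972 genes tested, 992 differed between Ncad_marrow and Cxcl12_RFP at a Benjamini-Hochberg adjusted p under 0.05 in limma, or 5.23% (either direction). Higher genes numbered 494 (2.6%) and lower genes 498 (2.62%). A change of at least 1 on the log2(FPKM + 1) scale was seen in 190 of the higher and 244 of the lower genes, and the median over all tested genes was 0. Without Ncad_marrow replicate 2 the count was 1244, with 596 higher and 648 lower. With a pseudocount of 0.1, which gives low values more weight, it was 769 with 288 higher, so the share of higher calls was 37.5% rather than 49.8%. Against Lepr libraries, 12.6% of tested genes were called for Ncad_marrow (2395) and 6.17% for Cxcl12_RFP (1171). These comparisons share libraries, so their values are given side by side only.

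**Figure D1:**
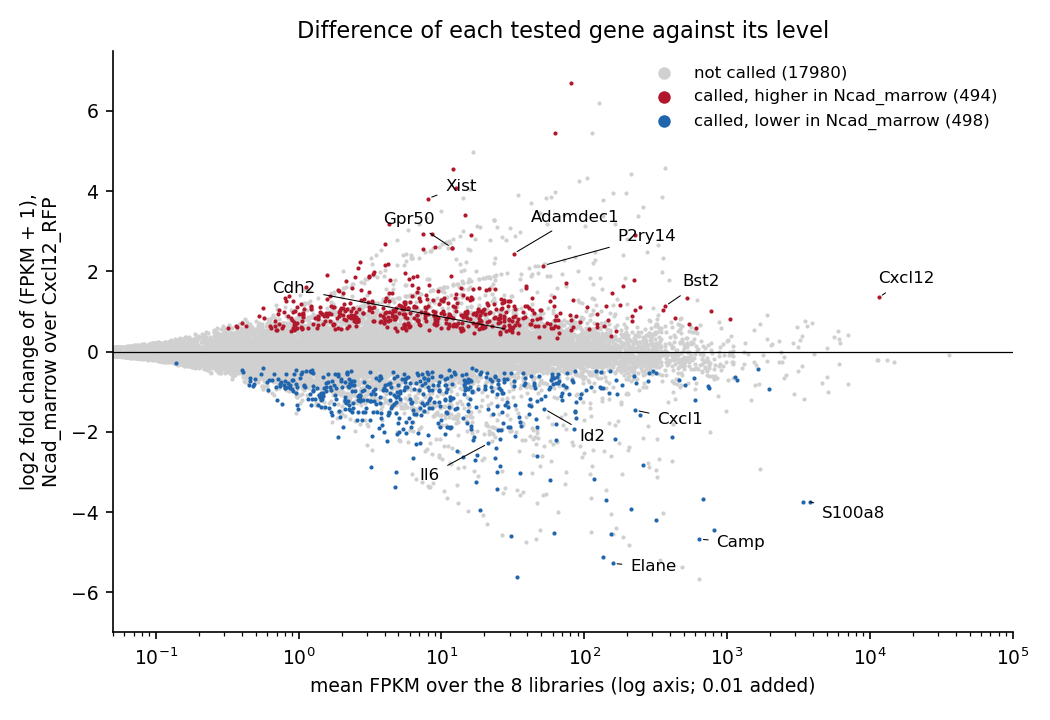
The log2 fold change of (FPKM + 1), Ncad_marrow over Cxcl12_RFP, of each of the 18972 tested genes (vertical axis) against its mean FPKM over the 8 libraries (horizontal log axis). Red points are the 494 genes called higher and blue points the 498 called lower in Ncad_marrow. Cxcl12 stands at the far right above 0, and the deepest blue points at high levels are neutrophil genes such as S100a8 and Camp.

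The niche signals differed in few members. Cxcl12, the gene of the reporter, and the growth factor gene Tgfb3 were higher in Ncad_marrow cells, and the cytokine gene Il6 was lower. These were the 3 called of 38 tested genes for factors that act on stem cells (2 higher, 1 lower), and the median log2 fold change of the list was 0.10. The share called, 7.89%, lies near the 5.23% of all tested genes. The higher count was 0 or 1 with no filter, with a pseudocount of 0.1 and without any single library other than Cxcl12_RFP replicate 1. The lower count was 2 with only the compared groups in the fit. Kitl, Angpt1, Vcam1 and 32 others did not pass the test.

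Cxcl12 (mm10, chr6:117168535-117181367) had 16101, 15916, 15927 and 18474 FPKM in Ncad_marrow libraries, against 6270.5, 7019, 6266 and 6462 FPKM in Cxcl12_RFP libraries. Every Ncad_marrow library was above every Cxcl12_RFP library, with a log2 fold change of 1.35 ± 0.41 (SE; adjusted p = 0.0446, limma, n = 4 each). The Lepr libraries had a mean of 16016 ± 2005 FPKM (SD, n = 6), close to Ncad_marrow (log2 fold change 0.06, adjusted p = 0.976) and above Cxcl12_RFP (log2 fold change of Cxcl12_RFP over Lepr -1.29, adjusted p = 0.0287). Among the 10 niche populations, Ncad_marrow ranked 2 and Cxcl12_RFP 5 in mean Cxcl12 level, and Ncad_bone, Ncad_marrow, Lepr and Nestin_GFP libraries overlapped at the top. The direction held throughout, but the call lies near the threshold: the adjusted p was 0.0733 with a pseudocount of 0.1, 0.0795 with no filter, and 0.0583 to 0.124 when any single library of the pair was left out. It was 0.0662 with the replicate number as a block. The SE and these values use the spread shared by all 10 niche populations. With only the compared groups in the fit, Cxcl12 was still called.

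Tgfb3, a TGF-beta ligand, had 26.5, 24.2, 24.2 and 23.9 FPKM in Ncad_marrow and 18.3, 17.2, 14.6 and 13.4 FPKM in Cxcl12_RFP. The groups were apart, with a log2 fold change of 0.62 ± 0.16 (adjusted p = 0.0215, limma), a call lost with a pseudocount of 0.1 (adjusted p = 0.365) or without Ncad_marrow replicate 1 or 4 or Cxcl12_RFP replicate 3 or 4 (adjusted p of 0.05 to 0.089). Against Lepr libraries the log2 fold change of Tgfb3 was 1.51 for Ncad_marrow (adjusted p = 2.26e-09) and 0.90 for Cxcl12_RFP (adjusted p = 8.41e-05).

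Kitl had 169, 215, 239 and 271 FPKM in Ncad_marrow and 207, 199.6, 224 and 193 FPKM in Cxcl12_RFP. The groups overlapped, and the log2 fold change was 0.10 with a 95% interval of -0.42 to 0.62. Angpt1, the ligand of the receptor TIE2, had 33.6, 42.3, 41.7 and 53.9 FPKM in Ncad_marrow and 43.7, 45.2, 43.5 and 39.1 FPKM in Cxcl12_RFP, again overlapping (log2 fold change -0.02, 95% interval -0.61 to 0.57). Vcam1, the adhesion protein that holds leukocytes and stem cells through the integrin alpha4 beta1, had 578 to 962 FPKM in Ncad_marrow and 621 to 686 FPKM in Cxcl12_RFP (95% interval of the log2 fold change -0.31 to 0.57).

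Some niche factors were separated between the groups without passing the test. Separation alone was common, as 1630 of the 18972 tested genes were higher and 1289 lower without overlap, called or not. Spp1, the gene of osteopontin, a matrix protein that limits stem cell numbers, had 944, 1143, 1249 and 1023 FPKM in Ncad_marrow and 773, 718, 469 and 681 FPKM in Cxcl12_RFP (log2 fold change 0.74, adjusted p = 0.0589). Both populations were well under Lepr cells in Spp1, with log2 fold changes of -2.15 for Ncad_marrow (adjusted p = 2.95e-09) and -2.88 for Cxcl12_RFP (adjusted p = 2.99e-12). Igf1, insulin-like growth factor, had 146, 168, 187 and 198 FPKM in Ncad_marrow and 265, 277, 272 and 229 FPKM in Cxcl12_RFP (log2 fold change -0.58, adjusted p = 0.18). Jag1, a Notch ligand, had 2.4 to 2.75 FPKM in Ncad_marrow and 3.07 to 5.54 FPKM in Cxcl12_RFP (log2 fold change -0.48, adjusted p = 0.156), and Fgf1 had 2.66 to 3.88 FPKM and 0.649 to 2.26 FPKM in the same order (log2 fold change 0.84, adjusted p = 0.0665). Calls depended on the limma run. Spp1 was called higher with a mean FPKM of at least 5 (adjusted p = 0.0472). Igf1 was called lower with only the compared groups in the fit (adjusted p = 0.0331), and Fgf1 higher without Cxcl12_RFP replicate 1 (adjusted p = 0.0454).

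**Figure D2:**
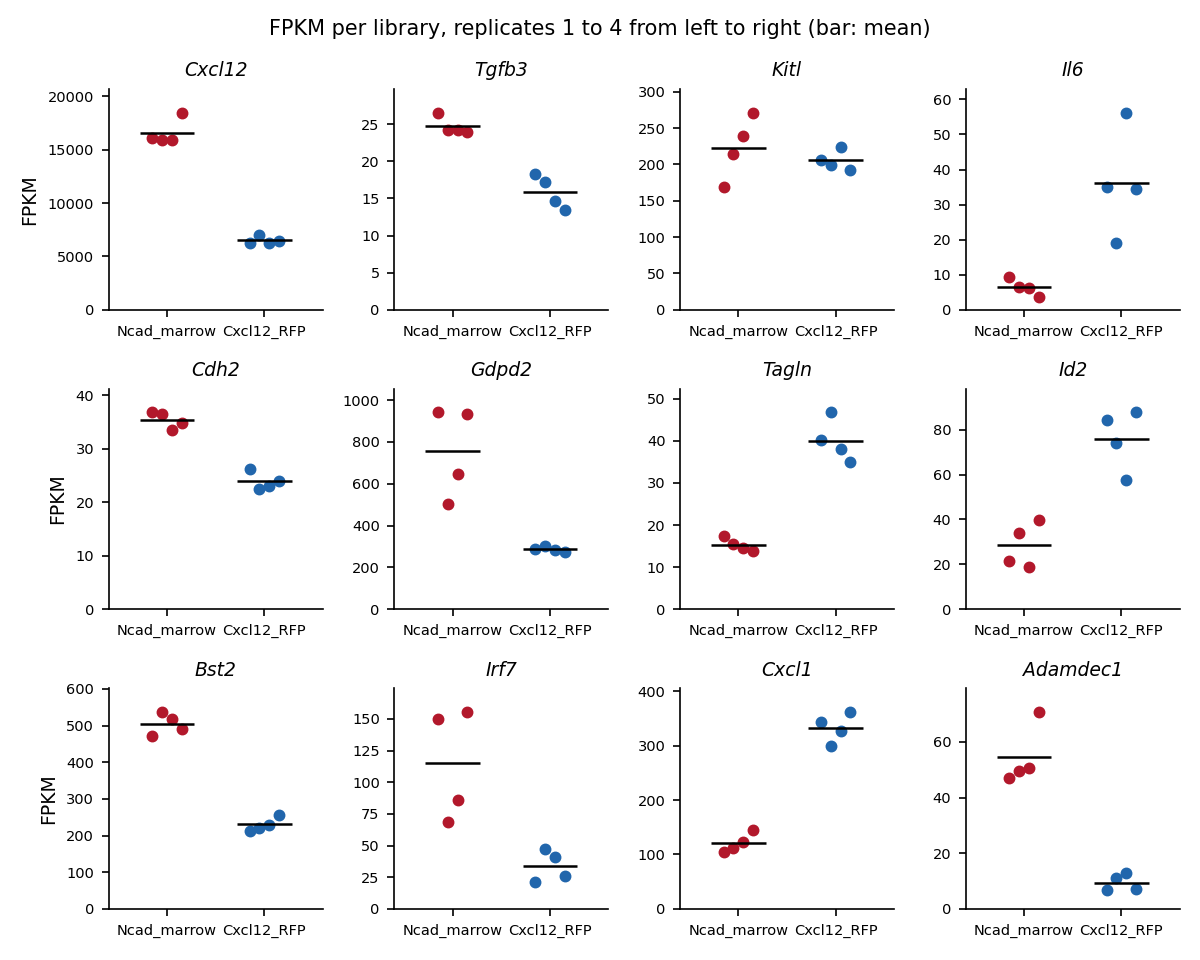
FPKM (vertical axes, from 0) of 12 genes in each library of Ncad_marrow (red) and Cxcl12_RFP (blue), with the bar at the group mean. Cxcl12, Tgfb3, Cdh2, Gdpd2, Bst2, Irf7 and Adamdec1 lie higher and Il6, Tagln, Id2 and Cxcl1 lower in all 4 Ncad_marrow libraries, while Kitl overlaps.

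The sorting genes went with the labels only in part. Cdh2 was higher in Ncad_marrow, yet 4 other niche populations carried more of it, and transcripts of the excluded markers CD45 and CD31 were low in both groups. Cdh2 (mm10, chr18:16588877-16809246) had 36.8, 36.4, 33.5 and 34.8 FPKM in Ncad_marrow and 26.3, 22.4, 23 and 23.9 FPKM in Cxcl12_RFP, without overlap (log2 fold change 0.55 ± 0.15, adjusted p = 0.0217, limma). The call was lost with a pseudocount of 0.1 (adjusted p = 0.272) and when any of 5 single libraries was left out (Ncad_marrow replicate 1 or 4, Cxcl12_RFP replicate 2, 3 or 4), at an adjusted p of 0.0512 to 0.0649. Lepr cells had 58.1 ± 5.75 FPKM (SD, n = 6), and log2 fold changes against them were -0.69 for Ncad_marrow (adjusted p = 0.000355) and -1.24 for Cxcl12_RFP (adjusted p = 1.91e-08). The order over the populations was Lepr, Ng2_RFP, Nestin_GFP, Ncad_bone, Ncad_marrow and Cxcl12_RFP, and the first 3 overlapped. Of 11 tested cadherins and catenins, Jup was the other called gene (18.2% called with Cdh2, against 5.23% of all tested genes). Jup, the plakoglobin that binds the tail of classical cadherins, had 29.7, 16.5, 18 and 29.8 FPKM in Ncad_marrow and 5.75, 9.11, 7.11 and 12.2 FPKM in Cxcl12_RFP (log2 fold change 1.36 ± 0.27, adjusted p = 0.00196).

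Ptprc, the gene of CD45, had 1.35, 4.69, 0.369 and 1.67 FPKM in Ncad_marrow and 5.76, 5.83, 5 and 4.07 FPKM in Cxcl12_RFP, and overlapped (adjusted p = 0.0892). Pecam1, the gene of CD31, had 0.581 to 1.49 FPKM in Ncad_marrow and 1.01 to 2.81 FPKM in Cxcl12_RFP (adjusted p = 0.116). Neither passed the test. The overlap in Ptprc came from Ncad_marrow replicate 2, and without that library Ptprc was called lower (log2 fold change -1.58, adjusted p = 0.0218, limma).

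**Figure D3:**
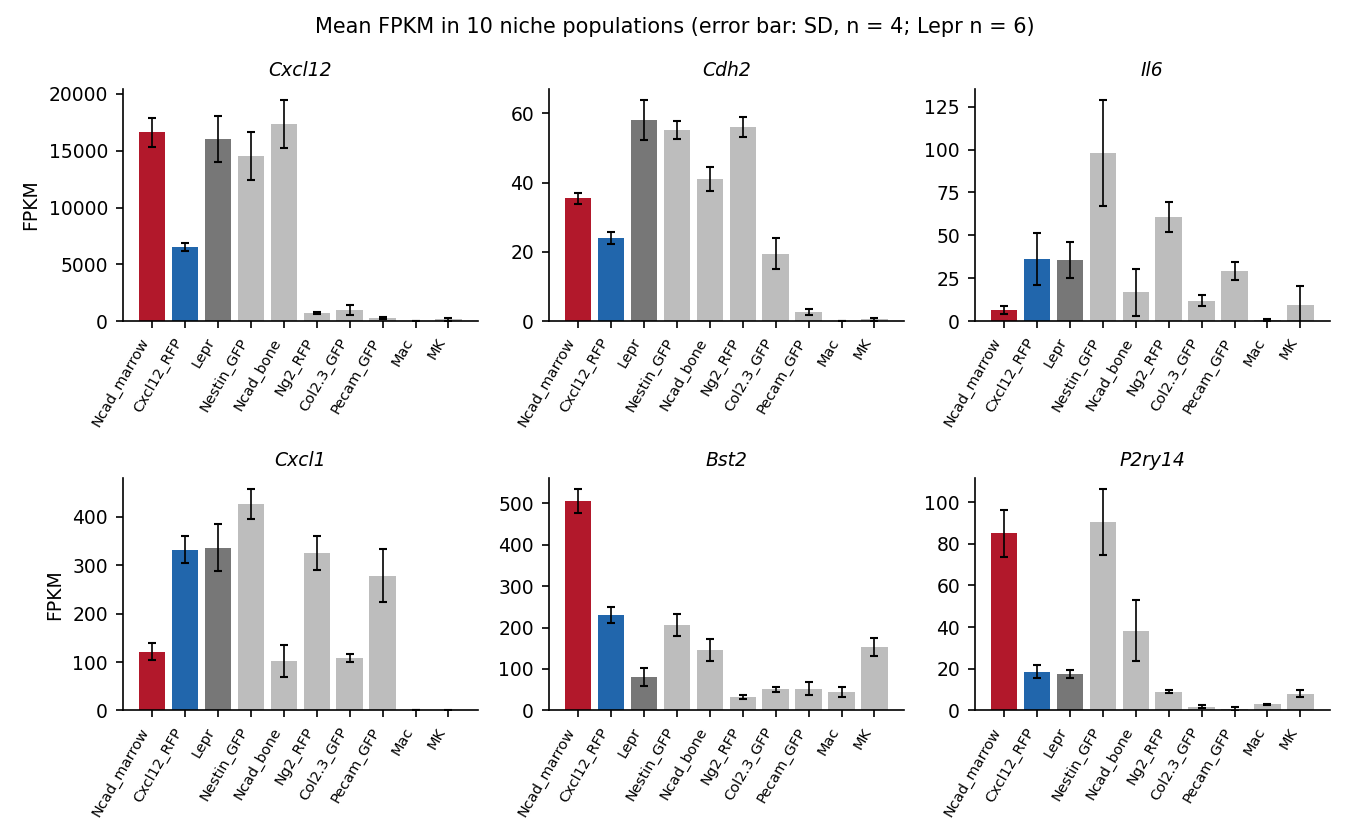
Mean FPKM (vertical axes, from 0) of Cxcl12, Cdh2, Il6, Cxcl1, Bst2 and P2ry14 in the 10 niche populations, with error bars of 1 SD (n = 4, Lepr n = 6). Ncad_marrow (red) reached the Cxcl12 level of Lepr cells, while Cxcl12_RFP (blue) lay at 6504 FPKM. For Il6 and Cxcl1 the means of Cxcl12_RFP (36.2 and 333 FPKM) lay near those of Lepr (35.6 and 337 FPKM).

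Among stromal lineage genes, few members were called. Gdpd2 and Lpl were higher among 33 tested genes of Lepr+ and adipogenic stroma (2 higher, 0 lower, median log2 fold change 0.18, and 1 higher when any single library other than Ncad_marrow replicate 2 was left out), and Phex and Dmp1 were higher among 27 tested osteoblast and osteocyte genes (2 higher, 0 lower, median 0.20, and 6 higher without Ncad_marrow replicate 4). These are 6.06% and 7.41% of the lists, near the 5.23% of all tested genes, and with only the compared groups in the fit 1 osteoblast and osteocyte gene was higher and 1 lower. Gdpd2, a glycerophosphodiester phosphodiesterase linked to osteoblast differentiation, had 942, 503, 645 and 935 FPKM in Ncad_marrow and 289, 304, 282 and 273 FPKM in Cxcl12_RFP (log2 fold change 1.35 ± 0.31, adjusted p = 0.00694). Lpl, lipoprotein lipase, had 1386, 904, 1295 and 1833 FPKM in Ncad_marrow and 766, 812, 730.1 and 691 FPKM in Cxcl12_RFP (log2 fold change 0.81 ± 0.24, adjusted p = 0.0404). Both genes were higher in every Ncad_marrow library, but the Lpl call was lost when any single library other than Ncad_marrow replicate 2 was left out (adjusted p of 0.0558 to 0.186) and with only the compared groups in the fit (adjusted p = 0.0691).

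Phex, the endopeptidase of bone cells whose loss causes phosphate wasting, had 28.2, 37.5, 37.7 and 41.7 FPKM in Ncad_marrow and 17.1, 20.4, 13.9 and 14.8 FPKM in Cxcl12_RFP (log2 fold change 1.09 ± 0.23, adjusted p = 0.00333). Dmp1, a matrix protein of osteocytes, had 10.6, 2.05, 2.83 and 1.55 FPKM in Ncad_marrow and 0, 0.688, 0.383 and 0.799 FPKM in Cxcl12_RFP (log2 fold change 1.59 ± 0.35, adjusted p = 0.00472). Both separated the groups, Dmp1 at a low level and with Ncad_marrow replicate 1 far over the rest. The Phex call was lost with a pseudocount of 0.1 (adjusted p = 0.091) and that of Dmp1 with only the compared groups in the fit (adjusted p = 0.108). Other bone genes did not pass the test. Col1a1, the main chain of bone collagen, had 27, 28.5, 32.4 and 9.79 FPKM in Ncad_marrow and 13.2, 11.2, 9.29 and 10.5 FPKM in Cxcl12_RFP (log2 fold change 0.97, adjusted p = 0.0653). Bglap, the osteocalcin gene, whose reads can be shared with near-identical copies, spread from 5.34 to 302 FPKM in Ncad_marrow and from 10.8 to 27.5 FPKM in Cxcl12_RFP. Ncad_marrow replicate 4 was the lowest of its group in both genes. Without it both were called higher by limma, Col1a1 with a log2 fold change of 1.34 (adjusted p = 0.00886) and Bglap with 2.74 (adjusted p = 0.0181). Runx2, the master regulator of osteoblasts, had 51.9 to 63.7 FPKM in Ncad_marrow and 33.4 to 49.7 FPKM in Cxcl12_RFP (adjusted p = 0.202), and Sp7, which acts after it, had 4.99 to 8.89 FPKM and 7.06 to 9.35 FPKM in the same order (adjusted p = 0.307).

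Genes of pericytes and smooth muscle were lower in Ncad_marrow in 4 of 18 tested members (22.2%, against 2.62% lower among all tested genes). None was higher, and the median log2 fold change was -0.06. Tagln, the contractile protein transgelin, had 17.3, 15.5, 14.6 and 13.8 FPKM in Ncad_marrow and 40.2, 46.8, 38.2 and 35 FPKM in Cxcl12_RFP (log2 fold change -1.33 ± 0.20, adjusted p = 3.10e-05). Rgs4, a regulator of G protein signalling typical of pericytes, had 5.01, 5.13, 4.11 and 6.58 FPKM in Ncad_marrow and 16.2, 30.7, 31.2 and 34.6 FPKM in Cxcl12_RFP (log2 fold change -2.19 ± 0.46, adjusted p = 0.0028). Neither gene overlapped. Notch3, the Notch receptor of mural cells, had 2.86 to 4.95 FPKM in Ncad_marrow and 6.67 to 9.22 FPKM in Cxcl12_RFP (log2 fold change -0.79, adjusted p = 0.00264). Acta2, smooth muscle actin, had 0.404 to 2.27 FPKM in Ncad_marrow and 2.69 to 5.98 FPKM in Cxcl12_RFP (log2 fold change -1.24, adjusted p = 0.0492), a call lost when Ncad_marrow replicate 1, 3 or 4 or Cxcl12_RFP replicate 1, 2 or 4 was left out (adjusted p of 0.0641 to 0.186). With only the compared groups in the fit, 2 members were lower and 1 was higher (1 also with a mean FPKM of at least 5), and the lower ones no longer included Notch3 (adjusted p = 0.0516) or Acta2 (adjusted p = 0.0849). Whether fewer such cells were sorted or each cell held less of these RNAs cannot be told apart in bulk libraries, which holds for every list here. Against Lepr libraries both groups were higher in Tagln, with log2 fold changes of 1.21 for Ncad_marrow (adjusted p = 7.20e-06) and 2.54 for Cxcl12_RFP (adjusted p = 6.21e-13). The receptor gene Pdgfra, a general stromal marker, had 34.3 to 36.2 FPKM in Ncad_marrow and 36.5 to 40.8 FPKM in Cxcl12_RFP (log2 fold change -0.10, 95% interval -0.43 to 0.22).

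Of 22 tested collagens 4 were lower and 1 higher (22.7% called, median -0.22). Of 33 tested adhesion and integrin genes 6 were lower and none higher (18.2% called, median -0.24). Over all tested genes 5.23% were called. With only the compared groups in the fit 2 adhesion genes were higher, and 1 was higher with a mean FPKM of at least 5, with median-of-ratios scaling or without Ncad_marrow replicate 2. Col12a1, a fibril-associated collagen of tendon and periosteum, had 22.7, 26.1, 18.6 and 18 FPKM in Ncad_marrow and 87.9, 67.4, 66.6 and 59.9 FPKM in Cxcl12_RFP (log2 fold change -1.68 ± 0.24, adjusted p = 1.83e-05). Col8a1, a network-forming collagen of vessel walls, had 46.9, 50.4, 42.9 and 42.8 FPKM in Ncad_marrow and 109, 85.3, 86.3 and 99.6 FPKM in Cxcl12_RFP (log2 fold change -1.03 ± 0.18, adjusted p = 0.000279). All 4 Ncad_marrow libraries were below all 4 Cxcl12_RFP libraries in both. The 2 chains of collagen V moved apart: Col5a1 had 42.4 to 52.6 FPKM in Ncad_marrow and 22.3 to 32 FPKM in Cxcl12_RFP (log2 fold change 0.84, adjusted p = 0.023), while Col5a2 had 14.7 to 25.3 FPKM in Ncad_marrow and 31.4 to 41.4 FPKM in Cxcl12_RFP (log2 fold change -0.69, adjusted p = 0.0105). A pseudocount of 0.1 ended the calls of Col8a1, Col5a1 and Col5a2 (adjusted p = 0.148, 0.135 and 0.1). The Col5a1 call was also lost without Ncad_marrow replicate 1 or 3 or Cxcl12_RFP replicate 1 or 4 (adjusted p of 0.0599 to 0.0825), and the Col5a2 call without Ncad_marrow replicate 4 (adjusted p = 0.0886). There were 2 lower collagens without Ncad_marrow replicate 4 and 2 higher without Cxcl12_RFP replicate 2.

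Ncam1, the neural cell adhesion molecule that some marrow stroma carries, had 4.37, 3.9, 3.01 and 4.19 FPKM in Ncad_marrow and 11.1, 11.4, 10 and 10.6 FPKM in Cxcl12_RFP (log2 fold change -1.28 ± 0.25, adjusted p = 0.00121). Itgav, the alpha V integrin that binds vitronectin and activates latent TGF-beta, had 72, 89.8, 70.7 and 47.3 FPKM in Ncad_marrow and 149, 136, 120.4 and 131 FPKM in Cxcl12_RFP (log2 fold change -0.96 ± 0.22, adjusted p = 0.00667). The groups did not overlap in either gene. Against Lepr libraries, the log2 fold change of Ncam1 was 0.08 for Ncad_marrow (adjusted p = 0.901) and 1.37 for Cxcl12_RFP (adjusted p = 7.00e-05), and that of Col12a1 was -0.15 (adjusted p = 0.76) and 1.53 (adjusted p = 5.36e-06) in the same order. Sdc3, a heparan sulphate proteoglycan, had 1.72 to 3.6 FPKM in Ncad_marrow and 5.83 to 7.99 FPKM in Cxcl12_RFP (log2 fold change -1.13, adjusted p = 0.00675). Itga4 and Cd44, also carried by leukocytes, were lower too, with log2 fold changes of -0.91 and -0.87 (adjusted p = 0.00436 and 0.0167). Without Ncad_marrow replicate 4 there were 3 lower adhesion genes, and the calls of Itgav and Cd44 were among those lost (adjusted p = 0.0538 and 0.0595). The Cd44 call was also lost without Ncad_marrow replicate 1 or Cxcl12_RFP replicate 4 (adjusted p = 0.0921 and 0.0963) and with only the compared groups in the fit (adjusted p = 0.1). Among 31 tested matrix proteases and inhibitors the called gene was Htra3, a serine protease that binds TGF-beta family ligands, with 104, 63.8, 75.7 and 97.4 FPKM in Ncad_marrow and 35.9, 39, 34.1 and 41 FPKM in Cxcl12_RFP (log2 fold change 1.14, adjusted p = 0.00685, but 0.185 with a pseudocount of 0.1).

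Of 32 tested genes of the TGF-beta and BMP pathway, none was higher, and the median log2 fold change was -0.31. In Ncad_marrow 9 were lower (28.1%, against 2.62% of all tested genes). Among them were the target genes Id1, Id2, Id3 and Smad6, the BMP antagonist gene Nog, the receptor genes Tgfbr1 and Bmpr2, and the ligand gene Gdf10. Id2, an inhibitor of helix-loop-helix factors and a direct BMP target, had 21.4, 34.1, 19 and 39.8 FPKM in Ncad_marrow and 84.4, 74, 57.7 and 87.8 FPKM in Cxcl12_RFP (log2 fold change -1.43 ± 0.19, adjusted p = 5.01e-06). Id1 had 20.3, 20.5, 14.5 and 14.1 FPKM in Ncad_marrow and 43.9, 44.6, 30.8 and 27.4 FPKM in Cxcl12_RFP (log2 fold change -1.03, adjusted p = 0.00252). Id3, the most abundant of the 3, had 877, 843, 968 and 887 FPKM in Ncad_marrow and 1608, 1318, 1485 and 1397 FPKM in Cxcl12_RFP (log2 fold change -0.70, adjusted p = 0.00736). All 3 Id genes were lower in each Ncad_marrow library than in any Cxcl12_RFP library.

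Nog, the secreted BMP antagonist noggin, had 1.38, 0.949, 1.38 and 1.51 FPKM in Ncad_marrow and 5.12, 2.81, 2.57 and 4.04 FPKM in Cxcl12_RFP (log2 fold change -0.98 ± 0.13, adjusted p = 9.04e-06). The ligand gene Tgfb3, counted with the niche factors, was instead higher. Without Ncad_marrow replicate 2, 8 members were lower and 1 higher, and leaving out other libraries singly left 6 or 7 lower.

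Interferon response genes rose in 13 of 34 tested members and fell in none (38.2%, against 2.6% higher among all tested genes), with a median log2 fold change of 0.74. Among them were the signalling genes Stat2, Irf7 and Irf9, the antiviral effector genes Bst2, Mx1, Oas1a, Oasl2 and Ifih1, the guanylate-binding and related GTPase genes Gbp3, Gbp6 and Irgm2, and Tap1, a peptide transporter of antigen presentation. Reads of Gbp3, Gbp6 and Oas1a can be shared with near-identical family members. Leaving out single libraries gave 6 to 15 higher members, with 6 without Ncad_marrow replicate 4 and 8 without Cxcl12_RFP replicate 4.

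Interferons act through a complex of transcription factors, IRF9 among them, that binds a short element in target promoters. To show what that element looks like in genes called here, the 150 bases before the annotated start of 2 of them are given 5′ to 3′ from RefSeq (GRCm38.p6), with matches to the element's core, GAAANNGAA, in capitals. Each holds 2 overlapping matches.
Bst2 (chr8:71537473-71537622, minus strand): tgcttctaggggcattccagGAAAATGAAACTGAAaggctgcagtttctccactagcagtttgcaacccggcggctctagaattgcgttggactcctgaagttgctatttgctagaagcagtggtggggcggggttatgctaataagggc
Oas1a (chr5:120907526-120907675, minus strand): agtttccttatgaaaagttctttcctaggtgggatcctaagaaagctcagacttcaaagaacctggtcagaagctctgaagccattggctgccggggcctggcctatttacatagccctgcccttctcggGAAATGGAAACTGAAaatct
The core was searched on both strands (as TTCNNTTTC on the other) over the 250 bases before each start. It was found in 16 of 31 promoters of tested interferon genes (51.6%) and in 6 of 12 promoters of the called ones (50.0%). Over all 32851 promoters the share was 7.13%. RefSeq promoters were matched for 27 of the 34 tested and 10 of the 13 called genes. A match is a description of letters and shows no binding.

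Bst2, the membrane protein tetherin that holds budding viruses, had 472, 538, 517 and 492 FPKM in Ncad_marrow and 213, 221, 229.9 and 257 FPKM in Cxcl12_RFP (log2 fold change 1.13 ± 0.19, adjusted p = 0.000351). Ncad_marrow had the highest mean level of Bst2 of the 10 populations, and Cxcl12_RFP the next. Irf7, the transcription factor that amplifies type I interferon, had 149.6, 68.8, 86.1 and 156 FPKM in Ncad_marrow and 21.5, 47.4, 40.7 and 26.1 FPKM in Cxcl12_RFP (log2 fold change 1.72 ± 0.52, adjusted p = 0.0442). Irf7 varied within Ncad_marrow, and its call was lost when Ncad_marrow replicate 1, 3 or 4 or Cxcl12_RFP replicate 1, 3 or 4 was left out (adjusted p of 0.065 to 0.15). Mx1, a GTPase that blocks viral replication, had 4.21, 2.06, 3.12 and 4.46 FPKM in Ncad_marrow and 0.166, 0.655, 1.2 and 0.482 FPKM in Cxcl12_RFP (log2 fold change 1.46 ± 0.26, adjusted p = 0.000514). The groups did not overlap in these 3 genes.

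Tap1 had 25.7 to 44.8 FPKM in Ncad_marrow and 17.4 to 18.6 FPKM in Cxcl12_RFP (log2 fold change 0.83, adjusted p = 0.000654), and Oas1a, which makes the messenger that activates RNase L, had 7.58 to 9.14 FPKM and 2.93 to 3.87 FPKM in the same order (log2 fold change 1.09, adjusted p = 0.00369). Stat2 had 10.6 to 13.7 FPKM in Ncad_marrow and 5.4 to 8.86 FPKM in Cxcl12_RFP (log2 fold change 0.76, adjusted p = 0.00114). Isg15, a ubiquitin-like protein, had 22.8 to 42 FPKM in Ncad_marrow and 11.2 to 19.7 FPKM in Cxcl12_RFP and missed the threshold (95% interval of the log2 fold change 0.37 to 1.63, adjusted p = 0.0528). It was called with a mean FPKM of at least 5 (adjusted p = 0.0418, limma) and with median-of-ratios scaling (adjusted p = 0.0474). Leaving out Ncad_marrow replicate 2 also gave a call (adjusted p = 0.0248). Against Lepr libraries, the log2 fold change of Mx1 was 1.64 for Ncad_marrow (adjusted p = 4.95e-06) and 0.18 for Cxcl12_RFP (adjusted p = 0.778), and for Bst2 it was 2.68 (adjusted p = 1.33e-13) and 1.54 (adjusted p = 8.85e-08) in the same order.

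Genes of 4 inflammatory cytokines were lower in Ncad_marrow. They were Il6, counted with the niche factors, and 3 of 27 tested chemokines and interleukins (11.1%, against 5.23% of all tested genes). None of the 27 was higher, and their median log2 fold change was 0.08. With only the compared groups in the fit, 1 of the 27 was lower and 5 were higher. Il6, interleukin 6, had 9.49, 6.37, 6.08 and 3.69 FPKM in Ncad_marrow and 35, 19, 56.2 and 34.5 FPKM in Cxcl12_RFP (log2 fold change -2.29 ± 0.47, adjusted p = 0.00227). Cxcl1, a neutrophil-attracting chemokine, had 104, 112, 123 and 144 FPKM in Ncad_marrow and 343, 298, 326 and 363 FPKM in Cxcl12_RFP (log2 fold change -1.46 ± 0.24, adjusted p = 0.000228). Neither overlapped. Lepr libraries lay close to Cxcl12_RFP in both: the log2 fold change against Lepr was -2.30 for Ncad_marrow (adjusted p = 0.000208) and -0.02 for Cxcl12_RFP (adjusted p = 1) in Il6, and -1.47 (adjusted p = 1.09e-05) and -0.01 (adjusted p = 1) in Cxcl1. Il1b, which myeloid cells make, had 0.099, 23.6, 23.2 and 0.636 FPKM in Ncad_marrow and 31.7, 48.8, 37.8 and 25 FPKM in Cxcl12_RFP (log2 fold change -2.64, adjusted p = 0.0058), and Ccl6, another myeloid chemokine, had 4.95 to 40.7 FPKM and 24.2 to 52.5 FPKM in the same order (log2 fold change -1.51, adjusted p = 0.0225). Both calls were lost without Ncad_marrow replicate 1 or 4 (adjusted p of 0.0553 to 0.102) and with only the compared groups in the fit (adjusted p = 0.213 for Il1b and 0.185 for Ccl6). The Ccl6 call was also lost without Ncad_marrow replicate 3 or Cxcl12_RFP replicate 2 or 3 (adjusted p of 0.0547 to 0.123), and that of Cxcl1 with a pseudocount of 0.1 (adjusted p = 0.0933).

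Immediate early and heat shock genes were split, and 33.3% and 18.5% of them were called, against 5.23% of all tested genes. Of 21 tested immediate early and dissociation genes 6 were lower and 1 higher (median 0.01), and of 27 tested stress and heat shock genes 4 were lower and 1 higher (median -0.28), with 3 higher when only the compared groups were fitted and 2 higher without Ncad_marrow replicate 2. Atf3, a stress-induced repressor, had 17.4, 18.3, 18.9 and 28.6 FPKM in Ncad_marrow and 66.6, 53.2, 62.6 and 64.4 FPKM in Cxcl12_RFP (log2 fold change -1.55 ± 0.27, adjusted p = 0.000484). Fosb had 69.8 to 123 FPKM in Ncad_marrow and 146 to 199.9 FPKM in Cxcl12_RFP (adjusted p = 0.00156), and Ier3 had 78.6 to 98.4 FPKM and 145 to 189 FPKM in the same order (adjusted p = 0.00362). Klf6 and Btg2 were lower as well, by log2 fold changes of -0.71 and -0.82 (adjusted p = 0.00256 and 0.00158). Jund went the other way, with 124, 54.9, 81.2 and 98.7 FPKM in Ncad_marrow and 27.4, 32.6, 33 and 39.9 FPKM in Cxcl12_RFP (log2 fold change 1.36, adjusted p = 0.00264). Fos, the best known gene of the list and a mark of enzymatic dissociation, had 2535, 1679.7, 2579 and 3342 FPKM in Ncad_marrow and 2038, 1936, 2012 and 2230.1 FPKM in Cxcl12_RFP and overlapped (log2 fold change 0.26, 95% interval -0.21 to 0.73).

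The cytosolic chaperone gene Hsp90aa1 had 92.2, 92, 123 and 139 FPKM in Ncad_marrow and 246, 257, 203 and 213 FPKM in Cxcl12_RFP (log2 fold change -1.05, adjusted p = 0.000971). Hsph1, a co-chaperone, had 4.27 to 5.81 FPKM in Ncad_marrow and 8.92 to 14 FPKM in Cxcl12_RFP (adjusted p = 6.84e-05), and the metallothionein gene Mt1 had 298 to 442 FPKM and 781 to 894 FPKM in the same order (adjusted p = 0.00422). Hspa5, the chaperone BiP of the endoplasmic reticulum, was instead higher, with 873, 784, 1056 and 1443 FPKM in Ncad_marrow and 397, 527, 577 and 517 FPKM in Cxcl12_RFP (log2 fold change 1.01, adjusted p = 0.0094, and 0.0664 without Ncad_marrow replicate 4).

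Replication and mitosis genes fell in 21 of 34 tested members and rose in none (61.8%, against 2.62% lower among all tested genes), with a median log2 fold change of -1.02. Mki67, the proliferation antigen, had 0.731, 2.51, 0.516 and 0.579 FPKM in Ncad_marrow and 3.07, 3.12, 6.7 and 6.14 FPKM in Cxcl12_RFP (log2 fold change -1.50 ± 0.23, adjusted p = 7.15e-05). Pcna, the sliding clamp of DNA polymerase, had 37.1, 59.2, 41.9 and 46.3 FPKM in Ncad_marrow and 66.4, 75.1, 97.7 and 82.2 FPKM in Cxcl12_RFP (log2 fold change -0.79 ± 0.15, adjusted p = 0.000676). Top2a, the topoisomerase of dividing cells, had 3.34, 12.4, 1.16 and 2.47 FPKM in Ncad_marrow and 13, 14.6, 11.7 and 28.3 FPKM in Cxcl12_RFP (log2 fold change -1.89 ± 0.35, adjusted p = 0.000946). Mki67 and Pcna did not overlap, while Top2a did through Ncad_marrow replicate 2. Ube2c, the ubiquitin-conjugating enzyme of the anaphase-promoting complex, had 6.76, 35.8, 5.46 and 6.47 FPKM in Ncad_marrow and 25.1, 30.1, 68.6 and 84.2 FPKM in Cxcl12_RFP (log2 fold change -2.11, adjusted p = 0.00172). Ccne2, cyclin E2, had 0.907 to 2.17 FPKM in Ncad_marrow and 3.15 to 12.1 FPKM in Cxcl12_RFP (log2 fold change -1.41, adjusted p = 0.00072), and Cks2, a subunit of cyclin-dependent kinases outside the list and named after its values were seen, had 15.6, 43.9, 15.8 and 15.9 FPKM in Ncad_marrow and 58.9, 79.5, 129 and 146 FPKM in Cxcl12_RFP (adjusted p = 6.08e-06).

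Promoters of cell cycle genes commonly carry CCAAT boxes, bound by the factor NF-Y. The 150 bases before the start of 2 called members show them in capitals, read on either strand (as ATTGG on the other; RefSeq, GRCm38.p6, 5′ to 3′).
Top2a (chr11:99024190-99024339, minus strand): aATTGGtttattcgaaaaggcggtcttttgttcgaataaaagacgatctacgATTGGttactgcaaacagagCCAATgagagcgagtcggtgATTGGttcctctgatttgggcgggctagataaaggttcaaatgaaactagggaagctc
Ube2c (chr2:164769779-164769928, plus strand): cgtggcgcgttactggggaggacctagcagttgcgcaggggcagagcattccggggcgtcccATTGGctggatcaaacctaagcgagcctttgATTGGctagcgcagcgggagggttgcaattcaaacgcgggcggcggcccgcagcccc
Top2a holds 4 and Ube2c 2 boxes in these bases. The search over all promoters covered the same stretch before each start as that for the interferon core. A box was found in 24 of 29 promoters of tested replication and mitosis genes (82.8%). Among promoters of the called ones it was found in 17 of 20 (85.0%), against 33.8% of all promoters. Promoters were matched for 27 of the 34 tested and 19 of the 21 called genes.

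Summed FPKM of the replication list was 220.3, 435, 203 and 207 in Ncad_marrow replicates 1 to 4, against 323, 444, 798 and 832 in Cxcl12_RFP replicates 1 to 4 and 554 to 749 in Lepr libraries. Ncad_marrow replicate 2, the library with most neutrophil RNA of its group, also had the most of these transcripts. Within Cxcl12_RFP the order differed, as the library highest in neutrophil RNA, replicate 2, was next to lowest in replication transcripts. Without Ncad_marrow replicate 2, 26 members were lower, but without Cxcl12_RFP replicate 3 or 4 the count was 10 or 8, and without Ncad_marrow replicate 3 or 4 it was 11. With only the compared groups in the fit, 1 member was called. The part of residual blood progenitors in these values was not tested.

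Neutrophil genes fell in 12 of 17 tested members and rose in none (70.6%, against 2.62% lower among all tested genes). Their median log2 fold change of -3.75 was the lowest of the 29 lists. Ngp, a granule protein of developing neutrophils, had 43.4, 667, 12.5 and 41.6 FPKM in Ncad_marrow and 1149, 1372, 1643 and 1530.2 FPKM in Cxcl12_RFP (log2 fold change -4.46 ± 0.69, adjusted p = 8.01e-05). S100a8, a calprotectin subunit, had 244, 3201, 166 and 445 FPKM in Ncad_marrow and 5885, 7690.3, 6441 and 6462 FPKM in Cxcl12_RFP (log2 fold change -3.75 ± 0.67, adjusted p = 0.000557). Elane, neutrophil elastase of promyelocytes, had 0.16, 90.3, 1.51 and 0.956 FPKM in Ncad_marrow and 50.3, 239.6, 124 and 764 FPKM in Cxcl12_RFP (log2 fold change -5.28 ± 1.32, adjusted p = 0.0134). Ncad_marrow replicate 2 stood between the rest of its group and Cxcl12_RFP in Ngp and S100a8, and passed the lowest Cxcl12_RFP library in Elane, whose call was lost without Ncad_marrow replicate 1 or 4 or Cxcl12_RFP replicate 4 (adjusted p of 0.0604 to 0.0694). The granule and secretory genes Camp, Fcnb, Chil3, Ltf, Lcn2 and S100a9 were lower by log2 fold changes of -4.67, -4.60, -4.54, -4.19, -3.91 and -3.76. With only the compared groups in the fit, 3 members were called, and without Ncad_marrow replicate 2 there were 13.

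The level of this blood RNA in Cxcl12_RFP overlapped that of Lepr libraries, with summed neutrophil FPKM of 15245 to 18512 in Cxcl12_RFP and 12714 to 20952 in Lepr, while the F4/80+ macrophage sort had 402600 to 581940. No member of the list was at 0 in all libraries of either group. Of 15 tested pan-leukocyte genes 5 were lower and none higher (33.3%, against 2.62% lower among all tested genes, median -1.10). Without Ncad_marrow replicate 2 there were 11 lower, without any other single library 2 to 4, and with only the compared groups none. Tyrobp, a signalling adaptor of myeloid and NK cells, had 23.4, 275, 28.6 and 35.7 FPKM in Ncad_marrow and 197, 229, 214 and 306 FPKM in Cxcl12_RFP (log2 fold change -2.17, adjusted p = 0.00211). Single genes were called lower among erythroid (Car2 of 16), macrophage (Lyz2 of 17), T and NK (Nkg7 of 12) and endothelial genes (Ly6c1 of 20), all 4 of which lost the call with only the compared groups in the fit. Without single libraries the erythroid count was 0 (Ncad_marrow replicate 1, 3 or 4, Cxcl12_RFP replicate 3 or 4) or 2 (Cxcl12_RFP replicate 1 or 2), and the macrophage count 0 (Ncad_marrow replicate 1 or 3, Cxcl12_RFP replicate 1, 3 or 4). The T and NK count was 0 without Cxcl12_RFP replicate 4, and the endothelial count 3 or 0 without Cxcl12_RFP replicate 1 or 2. At an unadjusted p under 0.05 in limma, 7 erythroid, 6 macrophage, 1 T and NK and 4 endothelial genes were lower. None of these lists had a higher gene at that level. Their median log2 fold changes were -1.01, -0.70, -0.01 and -0.36 in the same order. Lyz2 overlapped, with 827 FPKM in Ncad_marrow replicate 2 and 477 to 608 FPKM in Cxcl12_RFP. No gene was called of 15 B cell, 15 megakaryocyte, 14 Schwann and 17 skeletal muscle genes by limma, and 1, 1, 1 and 0 of them had an unadjusted p under 0.05. Without Ncad_marrow replicate 2, 1 B cell gene was lower, and with a pseudocount of 0.1, 1 Schwann gene was higher.

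**Figure D4:**
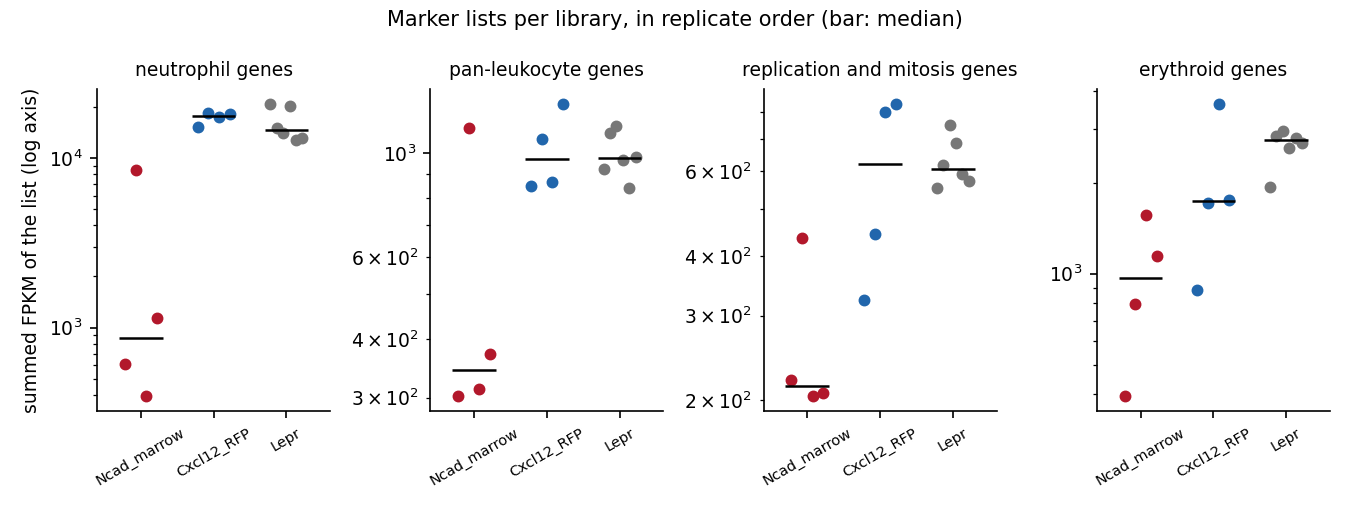
Summed FPKM of 4 marker lists (log axes) in each library of Ncad_marrow (red), Cxcl12_RFP (blue) and Lepr (grey), with the bar at the group median. In the neutrophil panel 3 of 4 Ncad_marrow libraries lie between 392 and 1136 and replicate 2 at 8518, all below Cxcl12_RFP.

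**Figure D5:**
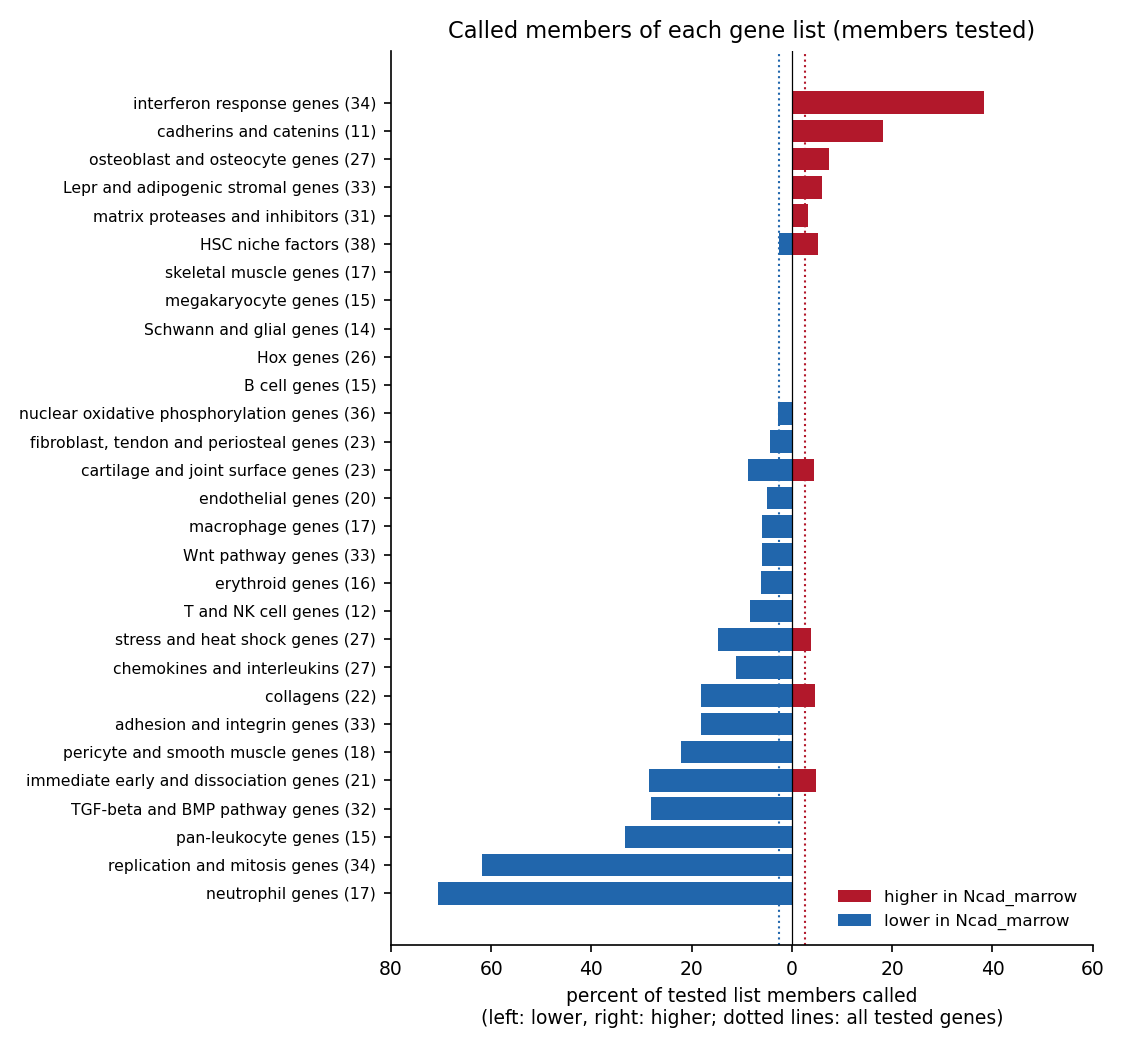
Percent of the tested members of each of 29 gene lists that were called lower (blue, to the left) or higher (red, to the right) in Ncad_marrow than in Cxcl12_RFP, with the number tested in brackets and dotted lines at 2.62% and 2.6%, the shares over all tested genes. The interferon list reaches 38.2% higher, and the neutrophil and replication lists 70.6% and 61.8% lower.

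Other genes were named for the size of their change. By the rule of largest rises among called genes without overlap, Xist came first, followed in order by Saa3, Gpr50, Fgl1, Ces1d, Adamdec1, P2ry14, S100a3 and Slamf8. Adamdec1, a secreted metalloprotease, had 46.9, 49.5, 50.7 and 70.9 FPKM in Ncad_marrow and 6.72, 10.9, 12.9 and 7.13 FPKM in Cxcl12_RFP (log2 fold change 2.44 ± 0.27, adjusted p = 2.43e-07). P2ry14, the receptor of UDP-glucose, had 71.9, 79.3, 93.8 and 95.2 FPKM in Ncad_marrow and 14.6, 21.9, 19.9 and 17.7 FPKM in Cxcl12_RFP (log2 fold change 2.15 ± 0.25, adjusted p = 4.45e-07). Lepr libraries had 15.6 to 19.1 FPKM of P2ry14 and Nestin_GFP libraries 72.9 to 111 FPKM, so the level in Ncad_marrow overlapped that in Nestin_GFP.

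Gpr50, an orphan receptor related to melatonin receptors, had 23.2, 11.9, 23.4 and 25.6 FPKM in Ncad_marrow and 4.2, 2.29, 1.9 and 2.12 FPKM in Cxcl12_RFP (log2 fold change 2.59 ± 0.30, adjusted p = 4.45e-07). Here Lepr libraries lay close to Ncad_marrow, with log2 fold changes of -0.02 for Ncad_marrow over Lepr (adjusted p = 1) and -2.61 for Cxcl12_RFP over Lepr (adjusted p = 1.01e-08). Saa3, the acute phase protein serum amyloid A3, had 23.3, 25.8, 33.3 and 31.1 FPKM in Ncad_marrow and 0.21, 2.04, 6.13 and 7.86 FPKM in Cxcl12_RFP (log2 fold change 2.90 ± 0.78, adjusted p = 0.0235), a call lost when Ncad_marrow replicate 3 or 4 or Cxcl12_RFP replicate 1 or 2 was left out (adjusted p of 0.0559 to 0.109). Fgl1, a secreted fibrinogen-like protein, had 18.2 to 25 FPKM in Ncad_marrow and 0.923 to 4.93 FPKM in Cxcl12_RFP (log2 fold change 2.59, adjusted p = 2.58e-05). Ces1d, a carboxylesterase that hydrolyses stored lipid, had 9 to 15.9 FPKM in Ncad_marrow and 0.18 to 2.58 FPKM in Cxcl12_RFP (log2 fold change 2.56, adjusted p = 6.40e-05). S100a3 and Slamf8 were higher by log2 fold changes of 1.99 and 1.96.

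The other 8 niche populations had a part in the gene filter and in the shared spread of the fit, so where the called genes were highest among them is given as a description. Of the 494 genes higher in Ncad_marrow, 229 (46.4%) had their highest group mean among those populations in Ncad_bone, the N-cadherin reporter cells of bone, against 17.7% of all tested genes with a unique symbol. Of the 498 lower genes, 214 (43.0%) were highest in the macrophage or Pf4-Cre-marked cells, against 28.4%. For autosomal genes 471 were higher and 484 lower of 18179 tested, and for X-linked genes 19 and 9 of 649, with a median log2 fold change of 0 in both.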

How the data were processed

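Libraries were made with a SMARTer low-input kit and Nextera from cells sorted by FACS after digestion of femur and tibia, as the labels' protocols state. The submitters' processing notes name the build mm10, Cufflinks 2.2.1, TopHat2 2.0.13 and bcl2fastq 2.18. The deposited values are FPKM per gene and library, which scale fragments by transcript length and by all mapped fragments. Further steps of the authors are not given in the sources used here.

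The niche set has 42 libraries in 10 groups. A missing value removed 28 of 44381 genes, and 73 symbols belong to more than 1 identifier. Each comparison is a contrast of 1 fit by limma (version 3.58.1, in R 4.3.3, tables read with data.table version 1.17.8) to log2 values with a pseudocount of 1 and a trended variance, in which all 10 groups share the spread. A gene entered with an FPKM of 1 or more in 3 or more libraries. The fit was tested on simulated data. Two-sided p-values were adjusted by Benjamini-Hochberg over all 18972 tested genes and called under 0.05. This scale understates changes of low genes, and depth is unknown beyond the relative values given. Lists are described by counts and medians. Gene positions are from GENCODE M21, and sums and figures were made in Python 3.11.15. The closing section gives the effect of another pseudocount, other filters, another scaling, a smaller fit, the replicate block and leaving out single libraries.

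Genes were named by a rule: the sorting genes, the niche factors, up to 4 called members with the smallest p of each list that had 3 or more called, and the 10 largest rises and 10 largest falls without overlap, if the higher group averaged 5 FPKM or more and the gene was no unnamed model. The text prints part of these, and some are not reported here. Further list members and the sex-linked genes were picked with their values in view. The libraries compared and all 29 lists were chosen with earlier results of these data known.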

Additional observations from a re-analysis of the deposited data

Results flagged for a closer look

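Values were set out where the highest or lowest of 4 libraries lay so far from the other 3 that the gap, as a share of the range, passed Dixon's 95% critical value. Chance alone gives about 1 in 20 groups, and 28 of 264 groups examined were set out, 16 of them by Ncad_marrow replicate 2.

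Ncad_marrow replicate 2 was the highest of its group in blood and cell cycle transcripts. Its summed FPKM was 8518 over neutrophil genes (others 392 to 1136), 1129.9 over pan-leukocyte genes (others 302 to 373) and 435 over replication and mitosis genes (others 203 to 220.3). Among single genes it had 3201 FPKM of S100a8, 2854 of S100a9, 667 of Ngp, 367 of Camp, 312 of Ltf, 189 of Lcn2 and 90.3 of Elane, all neutrophil genes. It also had 275 FPKM of Tyrobp and 9.98 of Nkg7, and of the cell cycle genes 43.9 of Cks2, 35.8 of Ube2c and 2.51 of Mki67. In Pdgfra it was the lowest, at 34.3 FPKM (others 36.0 to 36.2).

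Other Ncad_marrow libraries stood out in single genes. Replicate 4 was highest in Cxcl12 (18474 FPKM, others 15916 to 16101), Adamdec1 (70.9, others 46.9 to 50.7), Atf3 (28.6) and Hsph1 (5.81), and lowest in Col5a2 (14.7). Replicate 1 was highest in Tgfb3 (26.5) and Dmp1 (10.6, others 1.55 to 2.83), and replicate 3 in Eif2s3y (0.017, with the other 3 listed at 0).

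In Cxcl12_RFP, replicate 1 was highest in Gpr50 (4.201 FPKM, others 1.90 to 2.29). Replicate 4 was highest in Xist (0.746, others 0.02 to 0.059), in the summed cartilage and joint surface genes (52.9, others 38.2 to 40.6) and in the summed immediate early genes (5395, others 4861 to 4943).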

How the results depend on the processing

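The 992 calls between Ncad_marrow and Cxcl12_RFP numbered 744 with a mean FPKM of at least 5, 809 with no filter, 769 with a pseudocount of 0.1 (288 higher), 1007 with median-of-ratios scaling, and 950 with only the compared groups, of which 467 were shared. Leaving out 1 library gave 501 to 1244 calls, with 244 to 596 higher and 257 to 648 lower. The count moved by over 1.5 times without Ncad_marrow replicate 1 (532), 3 (619) or 4 (501) and without Cxcl12_RFP replicate 3 (610) or 4 (594), and the higher count also without Cxcl12_RFP replicate 1 (303). With the replicate number as a block there were 815 calls, 394 higher and 421 lower. Same-numbered libraries did not deviate together (correlations -0.0872 to 0.0429), so the numbers were not taken as pairs.

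For Cxcl12_RFP against Lepr the 1171 calls became 691 with a mean FPKM of at least 5, 717 with the replicate block and 757 without Cxcl12_RFP replicate 1, with 757 to 1293 over all single libraries left out. For Ncad_marrow against Lepr they stayed within 1.5 times of 2395 in every alternative run.

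The direction was followed for 103 genes, which do not include every called gene named in the text. None of the called genes among them changed direction in any alternative. Uncalled genes near 0 did when 1 library was left out: log2 fold changes ran from -0.0128 to 0.301 for Lepr, -0.00084 to 0.227 for Kitl, -0.0177 to 0.227 for Vcam1 and -0.131 to 0.0905 for Angpt1. Of 103 genes followed, calls were lost for 14 with a pseudocount of 0.1, 7 with no filter, 7 with the block and 29 with only the compared groups. Calls were gained for 3 with a mean FPKM of at least 5, 2 with median-of-ratios scaling and 1 with only the compared groups. The cause was not tested. FPKM gives no counting interval, and with 4 libraries a group small differences are not detectable.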

Other observations

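Other gene groups had few calls or none. Of 26 tested Hox genes none was called by limma (5 higher and 0 lower at an unadjusted p under 0.05, and 1 called higher without Ncad_marrow replicate 2 or Cxcl12_RFP replicate 2, with 1 higher and 1 lower when only the compared groups were fitted). Their summed FPKM was 185 to 193 in Ncad_marrow libraries against 132 to 154 in Cxcl12_RFP libraries and 97.1 to 134 in Lepr libraries. Of 36 nuclear oxidative phosphorylation genes 1 was lower and none higher, with a median log2 fold change of -0.18 and summed FPKM of 11093 to 14199 in Ncad_marrow against 14085 to 15393 in Cxcl12_RFP. Of 33 Wnt pathway genes 2 were lower and none higher (median -0.05). The lower count was 0 or 1 without Ncad_marrow replicate 2 or 3 or Cxcl12_RFP replicate 1, 3 or 4, and 1 member was higher without Ncad_marrow replicate 2 or Cxcl12_RFP replicate 4 and with only the compared groups in the fit. Of 23 cartilage genes 2 were lower, Col11a1 with 5.09 to 9.38 FPKM in Ncad_marrow and 7.83 to 12.1 FPKM in Cxcl12_RFP and Col9a2 with 0.364 to 0.801 FPKM and 0.893 to 2.26 FPKM in the same order, and Col2a1 was called higher with overlap, at 2.31, 4.09, 3.25 and 0.514 FPKM in Ncad_marrow and 0.591, 0.965, 0.459 and 0.687 FPKM in Cxcl12_RFP (adjusted p = 0.0465). The call of Col11a1 was lost in 5 and those of Col9a2 and Col2a1 in 7 each of the 8 fits that left out 1 library. Comp, a cartilage matrix protein gene, had 3.46 to 17 FPKM in Ncad_marrow and 15.3 to 31.2 FPKM in Cxcl12_RFP (adjusted p = 0.0534). It was called lower with a mean FPKM of at least 5 (adjusted p = 0.0421, limma) and with median-of-ratios scaling (adjusted p = 0.0429). Leaving out Ncad_marrow replicate 1 also gave a call (adjusted p = 0.0204).

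Sex-linked transcripts, looked at after their values were seen, did not follow a plain male or female pattern in Cxcl12_RFP. Ddx3y, a Y-linked helicase gene, had 0 to 0.035 FPKM in Ncad_marrow and 0.274 to 1.46 FPKM in Cxcl12_RFP, against 14.1 to 26 FPKM in Lepr libraries. Kdm6a, an X-linked gene that escapes silencing, had 7.87 to 10 FPKM in Ncad_marrow and 3.77 to 6.83 FPKM in Cxcl12_RFP (log2 fold change 0.66, adjusted p = 0.0272), a call lost in 5 of the 8 fits that left out 1 library.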
